A study of Mus musculus with 12 samples.

Results

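The subunits of the complexes that methylate lysine 4 of histone H3 (H3K4) were examined in RNA-Seq of mouse epiblast-like cells (EpiLCs) that carry or lack a functional *Kdm5c*. The 10 genes were chosen by their place in the complexes and comprise 6 catalytic subunits (*Kmt2a*, *Kmt2b*, *Kmt2c*, *Kmt2d*, *Setd1a* and *Setd1b*) and 4 core subunits (*Ash2l*, *Wdr5*, *Rbbp5* and *Dpy30*). All 10 were among the 22911 genes of both deposited tables, 1 table per sex. The rule that names them uses no measured value, although they were picked with earlier results of these data known.

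H3K4 methyltransferase complexes pair a single catalytic subunit, which holds the SET domain, with the shared core of WDR5, RBBP5, ASH2L and DPY30, on which the activity of the catalytic subunits depends. SETD1A and SETD1B account for much of the trimethylation at active promoters, KMT2A and KMT2B act at CpG-rich promoters including those of developmental genes, and KMT2C and KMT2D place monomethylation at enhancers. KDM5C removes methyl groups from di- and trimethylated H3K4 and leaves it monomethylated. It thus works against di- and trimethylation, and not against the monomethylation that KMT2C and KMT2D place. The levels of these subunits in cells without it are of interest in EpiLCs, which pass from naive to primed pluripotency.

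The 12 libraries form 4 groups of 3, each from independent embryonic stem cell (ESC) lines that were differentiated into EpiLCs for 48 h with FGF2 and Activin A on fibronectin. They are female *Kdm5c* fl/fl and male *Kdm5c* flY cells, labelled wild type for *Smcx*, an older symbol of *Kdm5c*, and female *Kdm5c* Δ/Δ and male *Kdm5c* ΔY cells, labelled knockout. The controls of both sexes therefore carry the floxed allele, and the Δ allele lacks the exons that encode the JmjC demethylase domain in every cell. The labels name C57BL/6J as the strain of all groups, whereas the methods of the study describe the floxed strain as being of mixed background. After removal of ribosomal RNA from total RNA, 50 bp were read from 1 end of each fragment.

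The tables give a mean normalized count per group, that is reads per gene after division by a size factor for the depth of a library. Values of single libraries were solved from these means, since every mean up to 10000 had exactly 1 solution in whole reads. Within a group the libraries are named A, B and C from the largest size factor to the smallest, and which ESC line each stands for is not known. Recovered depth, over genes with means up to 10000, was 5516216 to 11092731 reads per library. The members had between 220 and 5156 reads in each library. Differences between groups are on the log2(normalized count + 1) scale from limma, with p-values adjusted by the Benjamini-Hochberg method over all genes tested and 0.05 as the threshold.

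Several facts about the libraries touch every result. *Kdm5c* itself fell in Δ/Δ females from 2359.7 ± 60.7 to 1453 ± 49.7 normalized counts (SD, n = 3 each) and was 2226 ± 133 and 1938 ± 39.7 in flY and ΔY males, a male difference of −0.20 that did not pass (limma adjusted p = 0.274; −0.22 and 0.0211 without the 2 libraries named next). These counts cover the whole gene and so check the deletion only in part. 4 Y-linked genes had 112 to 916 normalized counts in every male library and at most 14.3 in the female libraries. Library B of flY and library A of ΔY stood apart from the others of their groups. Their median absolute log2 distance to the other libraries of the group was 0.22 and 0.25, against 0.075 to 0.16 for the remaining 10. For the members, male differences are given with and without both. *Xist*, the RNA that coats the inactive X chromosome, fell in Δ/Δ females from 1341 ± 84.9 to 264 ± 26.0 normalized counts (log2 difference −2.34). In males *Xist* was 410 ± 139.5 in flY and 233 ± 69.9 in ΔY, a difference of −0.79 that did not pass (limma adjusted p = 0.129). It passed without flY library B (−1.11, adjusted p = 0.0319), without ΔY library A (−1.02, 0.0237) and without both (−1.34, 0.000108).

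Markers of cell states also moved with genotype. In females, all 8 endoderm markers rose, with summed levels of 416 to 465 normalized counts in fl/fl and 3352 to 3465 in Δ/Δ libraries. In males none of the 8 rose and 1, *Sox17*, fell, with summed levels of 1635 to 2382 in flY and 528 to 2780.3 in ΔY libraries. Of the 8 naive ESC markers 7 rose in females (965 to 998 against 3033 to 3193) and 5 in males (1446 to 2588 against 4120.3 to 7365). Of the 8 EpiLC markers, all of which were present in every group, 4 rose and 2 fell in females, and 3 fell in males. ESCs are derived on fibroblast feeder cells, and here were passaged on gelatin without feeders before the differentiation. Of the 6 fibroblast markers, 3 fell in females (2244 to 2297 against 745 to 806) and 4 rose in males (553 to 820 against 4163 to 4663). Of the 4 trophoblast markers, 1 rose in females (238 to 269.6 against 334 to 347) and 3 rose in males (179 to 303 against 941 to 1879). Of the 6 streak and mesoderm markers, 3 rose and 1 fell in females (329 to 361 against 334 to 378) and 1 rose in males (225 to 247 against 463 to 1179), and *Mesp1* was listed at 0 in fl/fl and ΔY. Of the 4 neural markers, 1 rose and 2 fell in females (529 to 584 against 469 to 510.2), and 1 rose and 1 fell in males (283 to 355 against 193 to 566). The part of these cell states in the results below was not tested, and in bulk RNA fewer cells of a type and less RNA per cell cannot be told apart.

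All 10 genes are autosomal. On mm9, *Kmt2a* lies on chr9:44611438-44689379 (− strand, 16.67 kb of exons), *Kmt2b* on chr7:31353877-31373745 (−, 9.596 kb), *Kmt2c* on chr5:24777612-25004601 (−, 20.296 kb) and *Kmt2d* on chr15:98662100-98701614 (−, 19.805 kb). *Setd1a* lies on chr7:134920184-134943636 (+, 6.795 kb) and *Setd1b* on chr5:123592202-123617444 (+, 10.874 kb). Of the core subunits, *Ash2l* lies on chr8:26926663-26958166 (−, 5.231 kb), *Wdr5* on chr2:27370677-27392055 (+, 3.596 kb), *Rbbp5* on chr1:134373944-134402242 (+, 3.632 kb) and *Dpy30* on chr17:74698814-74723284 (−, 0.974 kb). Between 91.2% (*Rbbp5*) and 100% (*Kmt2a* and *Kmt2c*) of exonic windows of 50 bases occur once in the genome. Exons of *Hsd3b7* on the same strand share 3523 bp (51.8%) of the *Setd1a* exons through a read-through transcript. The group means of *Hsd3b7* were 43.9 to 109 normalized counts, and how reads on the shared exons were assigned is not given in the sources used here.

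Promoter windows from 250 bases before to 50 bases after the start (RefSeq, GRCm38.p6) were listed for 7 of the 10 genes, and not for *Kmt2b*, *Setd1b* and *Ash2l*. The windows of *Kmt2c* and *Dpy30*, which rose in Δ/Δ females, and of *Kmt2a*, which fell, are shown 5′ to 3′ to let their composition be compared. Capitals mark the GC box GGGCGG or its reverse complement CCGCCC, with overlapping matches counted separately. The *Kmt2c* window is chr5:25498734-25499033 (− strand), that of *Kmt2a* is chr9:44881240-44881539 (−) and that of *Dpy30*, the one of its 4 entries with the most CG dinucleotides, is chr17:74316162-74316461 (−).
Kmt2c: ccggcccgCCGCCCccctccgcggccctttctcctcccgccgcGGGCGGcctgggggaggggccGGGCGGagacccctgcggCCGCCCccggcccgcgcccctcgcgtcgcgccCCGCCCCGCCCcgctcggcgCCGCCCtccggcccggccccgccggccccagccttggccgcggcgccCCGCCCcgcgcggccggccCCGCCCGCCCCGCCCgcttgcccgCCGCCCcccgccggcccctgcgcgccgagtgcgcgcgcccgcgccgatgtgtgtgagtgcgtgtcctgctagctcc
Kmt2a: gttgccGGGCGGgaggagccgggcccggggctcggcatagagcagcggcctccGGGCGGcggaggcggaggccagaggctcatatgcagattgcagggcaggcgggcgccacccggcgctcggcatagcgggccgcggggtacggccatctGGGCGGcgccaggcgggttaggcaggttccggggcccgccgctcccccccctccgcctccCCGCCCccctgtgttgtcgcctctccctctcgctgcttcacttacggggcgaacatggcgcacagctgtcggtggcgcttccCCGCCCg
Dpy30: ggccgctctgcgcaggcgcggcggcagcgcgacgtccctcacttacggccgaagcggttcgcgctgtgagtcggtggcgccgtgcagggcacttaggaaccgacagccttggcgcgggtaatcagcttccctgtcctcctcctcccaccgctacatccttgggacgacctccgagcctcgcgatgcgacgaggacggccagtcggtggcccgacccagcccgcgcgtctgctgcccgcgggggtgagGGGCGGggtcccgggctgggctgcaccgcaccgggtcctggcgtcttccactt

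The *Kmt2c* window held 12 GC boxes and 56 CG dinucleotides at 88.0% G and C, the *Kmt2a* window 5 and 36, and the *Dpy30* window 1 and 39. Among all 32851 promoter windows of this length, 35.7% held at least 1 GC box and the median number of CG dinucleotides was 7. As many GC boxes as in *Kmt2c* were found in 0.0213% of the windows, and as many as in *Kmt2a* in 2.71%. As many CG dinucleotides were found in 0.195% for *Kmt2c*, 6.23% for *Kmt2a* and 4.45% for *Dpy30*. The other entries of *Dpy30* held 1, 30 and 34 CG dinucleotides. The remaining windows held 35 (*Setd1a*), 27 (*Kmt2d*), 22 (*Wdr5*) and 16 (*Rbbp5*), and as many as in *Rbbp5*, which also rose, were found in 33.0% of all windows.

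Over their full exon lengths, the core subunits were present at higher levels per length than the catalytic subunits. In fl/fl females, *Dpy30* led with 1054 ± 66.8 normalized counts per kb of exon (SD, n = 3), followed by *Ash2l* with 460.4 ± 9.22, *Wdr5* with 321 ± 7.09 and *Rbbp5* with 220.2 ± 5.25. Then came *Setd1a* with 151 ± 4.25 normalized counts per kb, *Kmt2b* with 124 ± 1.58, *Kmt2a* with 91.8 ± 6.46, *Kmt2d* with 50.9 ± 1.56, *Kmt2c* with 44.7 ± 0.483 and *Setd1b* with 26.0 ± 1.67. No neighbours in this order had overlapping libraries. The place of *Setd1a* depends on its length, since over the 3.272 kb that it does not share with *Hsd3b7* its level would be 313 normalized counts per kb. On that length *Setd1a* would lie above *Rbbp5* in all 4 groups, at 297 to 327 normalized counts per kb. It would also lie above *Wdr5* in Δ/Δ females (327 against 307), flY males (297 against 229) and ΔY males (313 against 287), though not in fl/fl females.

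The order was much the same in the other groups. In Δ/Δ females *Kmt2c* passed *Kmt2d*, with 63.9 ± 3.11 against 45.8 ± 5.15 normalized counts per kb, and the libraries of *Kmt2d* overlapped those of *Setd1b*, at 41.4 ± 0.444. In flY males *Rbbp5* (250.2 ± 11.3) and *Wdr5* (229 ± 30.2), *Setd1a* (143 ± 10.8) and *Kmt2b* (131 ± 8.40), and *Kmt2c* (67.9 ± 4.27) and *Kmt2d* (59.6 ± 7.75) were neighbours with overlapping libraries. In ΔY males the same held for *Wdr5* and *Rbbp5* and for *Kmt2c* and *Kmt2d*. *Dpy30*, *Ash2l* and, at the other end, *Setd1b* kept their places in all 4 groups.

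**Figure D1:**
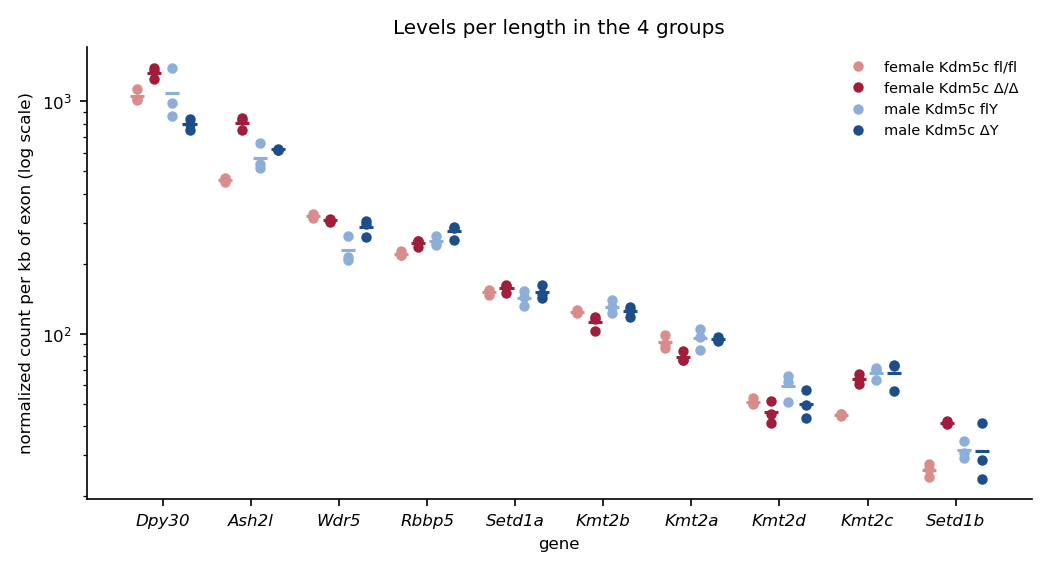
Normalized counts per kb of exon (log axis) of the 10 genes, ordered by their level in female *Kdm5c* fl/fl EpiLCs, with each library as a point and the mean of 3 libraries as a bar. Over the full exon lengths used here, the core subunits *Dpy30*, *Ash2l*, *Wdr5* and *Rbbp5* sit above the catalytic subunits in every group, and *Setd1b* is lowest.

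In females, the loss of *Kdm5c* function came with a rise of *Ash2l*, *Setd1b*, *Kmt2c* and *Dpy30* and with smaller differences in the rest. Of the 10 genes, 6 passed the test, 5 higher and 1 lower in Δ/Δ, made up of 3 of the 6 catalytic and 3 of the 4 core subunits. Over all 19583 genes tested in females 50.0% passed, 25.4% higher and 24.6% lower, and 68.3% of those with a mean of 100 or more, as all 10 members have. The count is thus near that of all genes. The median log2 difference was 0.11 over the members, 0.0037 over all genes tested and 0.035 over those with a mean of 100 or more. For 8 members all libraries of one genotype lay above all of the other, while 54.8% of all genes tested in females had libraries that did not overlap. That share covers genes of any level. It was not computed for those with a mean of 100 or more, so the count of members cannot be set against genes of like level.

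Among the core subunits, *Ash2l*, which stimulates the catalytic subunits together with RBBP5, had 2451, 2419 and 2356 normalized counts in the fl/fl libraries A to C and 3933, 4340.0 and 4441 in Δ/Δ. All Δ/Δ libraries were above all fl/fl libraries, and the 3 fl/fl values lay close together. The log2 difference was 0.81 (SE 0.057, a 1.76-fold rise; limma adjusted p = 1.33e-09). An exact permutation test over the 3 against 3 libraries, two-sided, gave p = 0.10, the smallest it allows.

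*Dpy30*, the small subunit that binds ASH2L, had 1102, 983 and 996 normalized counts in fl/fl and 1361, 1311 and 1214 in Δ/Δ libraries. The groups did not overlap, and the log2 difference was 0.34 (SE 0.063; limma adjusted p = 0.000214). *Rbbp5*, which binds the SET domain together with ASH2L, had 822, 788 and 789 in fl/fl and 911, 908 and 861 in Δ/Δ libraries. Again the groups did not overlap, but the difference of 0.16 (SE 0.058; limma adjusted p = 0.0283) was small. It no longer passed when fl/fl library B or C or Δ/Δ library A or B was left out (adjusted p from 0.0708 to 0.0799) or with scaling by total reads (0.223).

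*Wdr5*, the subunit that docks the complex on histone H3 and on the catalytic subunit, did not pass in females. It had 1127, 1174 and 1167 normalized counts in fl/fl and 1091, 1119.5 and 1104 in Δ/Δ libraries. The Δ/Δ values were all below the fl/fl values, by a log2 difference of −0.07 (95% interval −0.18 to 0.05; limma adjusted p = 0.350). Of the 4 core subunits 3 thus rose, by 0.16 to 0.81.

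Among the catalytic subunits, the larger rises were in *Setd1b* and *Kmt2c*, the catalytic members with the lowest levels per length in fl/fl females. *Setd1b* had 299.8, 264 and 283 normalized counts in fl/fl and 455, 450.3 and 446 in Δ/Δ libraries. The log2 difference was 0.67 (SE 0.073, 1.60-fold; limma adjusted p = 4.07e-07), and the Δ/Δ libraries lay within a narrow range above all controls. *Kmt2c*, an enhancer monomethyltransferase, had 896, 915 and 912 in fl/fl and 1235, 1294 and 1361 in Δ/Δ libraries. The groups did not overlap, and the difference was 0.51 (SE 0.057, 1.43-fold; limma adjusted p = 5.62e-07).

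The other catalytic subunits were level or lower. *Kmt2a* had 1443, 1650.2 and 1497 normalized counts in fl/fl and 1278, 1289 and 1408 in Δ/Δ libraries. The groups did not overlap, although the highest Δ/Δ and the lowest fl/fl library were close. Its difference of −0.21 (SE 0.063; limma adjusted p = 0.0102) passed, but not without fl/fl library B (−0.15, adjusted p = 0.0725). *Kmt2b*, with means of 1192 ± 15.2 and 1076 ± 81.1 (SD, n = 3 each), differed by −0.15 (95% interval −0.28 to −0.02; limma adjusted p = 0.0521), and its libraries did not overlap. Without Δ/Δ library A (−0.17, adjusted p = 0.0484) or C (−0.19, 0.0372) it passed, while without Δ/Δ library B it was −0.086 (0.264). Over genes with a mean of at least 10 it passed as well (−0.15, adjusted p = 0.0412). *Kmt2d*, at 1009 ± 31.0 and 907 ± 102, differed by −0.16 (interval −0.31 to −0.01; adjusted p = 0.0745), and its libraries overlapped. It passed without Δ/Δ library C (−0.24, adjusted p = 0.00984), and without Δ/Δ library B it was −0.083 (0.369). *Setd1a*, at 1025 ± 28.9 and 1070.5 ± 45.4, differed by 0.06 (interval −0.06 to 0.18; adjusted p = 0.407) with overlapping libraries.

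Scaling by total recovered reads in place of the size factors moved every female difference down by about 0.07. The 4 larger rises still passed (*Ash2l* 0.74, *Setd1b* 0.61, *Kmt2c* 0.44 and *Dpy30* 0.27), and *Kmt2a* (−0.28), *Kmt2b* (−0.22), *Kmt2d* (−0.23) and *Wdr5* (−0.13) were then called lower. With that scaling 8 members passed.

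**Figure D2:**
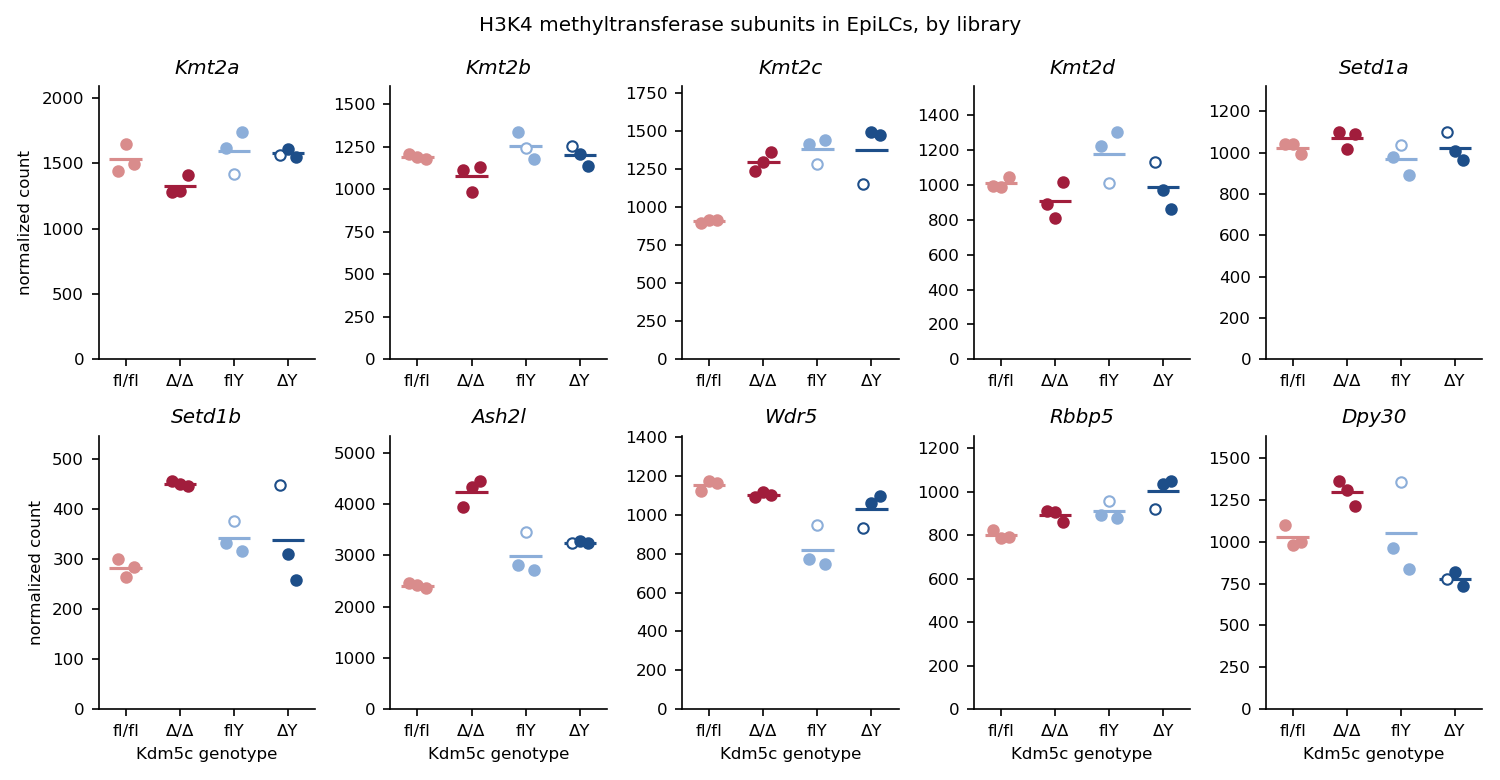
Normalized counts of each gene in the 12 libraries (points) by *Kdm5c* genotype, with the mean of 3 libraries as a bar and axes that start at 0. Open points are library B of flY and library A of ΔY, and the Δ/Δ points of *Ash2l*, *Setd1b*, *Kmt2c* and *Dpy30* lie above all fl/fl points.

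In males, none of the 10 genes passed the test. An unadjusted p under 0.05 was found for 2 of them, and for 5397 of all 21900 genes tested. Over the 21900 genes tested in males 7.78% passed, and 11.9% of those with a mean of 100 or more. The genotypes were free of overlap for 1 member, *Dpy30*, against 26.5% of all genes. The standard errors of the members were 0.11 to 0.20 on the log2 scale, against 0.054 to 0.073 in females.

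*Dpy30* had 962, 1356 and 839 normalized counts in flY and 777, 817 and 734 in ΔY libraries. Library B of flY was far above the other controls, and all ΔY values were below all controls. The log2 difference was −0.41 (SE 0.17, 95% interval −0.79 to −0.03; limma adjusted p = 0.175), and −0.21 without the libraries that stood apart (adjusted p = 0.0942). *Wdr5* had 772, 947 and 749 in flY and 934, 1061 and 1101 in ΔY libraries. Library B of flY and library A of ΔY were the values that made the groups overlap. The difference was 0.33 (SE 0.13, interval 0.04 to 0.63; adjusted p = 0.160), and it passed without flY library B (0.44, adjusted p = 0.0376), without ΔY library A (0.40, 0.0485) and without both (0.51, 0.00102).

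*Ash2l* had 2814, 3449 and 2703 normalized counts in flY and 3233, 3272 and 3242 in ΔY libraries. The ΔY libraries lay close together and below library B of flY. The difference was 0.13 (SE 0.12, interval −0.15 to 0.40; limma adjusted p = 0.527), and 0.24 without both libraries (adjusted p = 0.00756). *Kmt2d* had 1223, 1009 and 1306 in flY and 1131, 972 and 861 in ΔY libraries, a difference of −0.26 (SE 0.14; adjusted p = 0.297). Without both libraries it was −0.47 (adjusted p = 0.00406). *Rbbp5* was 909 ± 40.9 in flY and 1000.5 ± 71.0 in ΔY (SD, n = 3 each), a difference of 0.14 (adjusted p = 0.464) that became 0.23 without both (adjusted p = 0.0169).

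*Kmt2c* and *Setd1b*, which rose in females, did not pass in males, and their intervals lay below the female values of 0.51 and 0.67. *Kmt2c* had 1412, 1279 and 1441 normalized counts in flY and 1150.0, 1494 and 1474 in ΔY libraries. Library A of ΔY was below all controls and the others above them, and the difference was −0.01 (interval −0.31 to 0.28; limma adjusted p = 0.958; 0.057 and 0.399 without both libraries). *Setd1b* had 332, 376 and 316 in flY and 447, 310.2 and 259 in ΔY libraries, so that the ΔY libraries spanned the controls. Its difference was −0.05 (interval −0.49 to 0.39; adjusted p = 0.892; −0.19 and 0.197 without both). *Kmt2a* (−0.01, interval −0.27 to 0.24), *Kmt2b* (−0.06, −0.31 to 0.18) and *Setd1a* (0.08, −0.18 to 0.34) did not pass either, and were −0.089, −0.10 and 0.079 without both libraries. Without both libraries 4 members passed, *Wdr5*, *Ash2l* and *Rbbp5* higher and *Kmt2d* lower, while 43.0% of all genes tested in males then passed. This fit was added after the data had been seen.

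**Figure D3:**
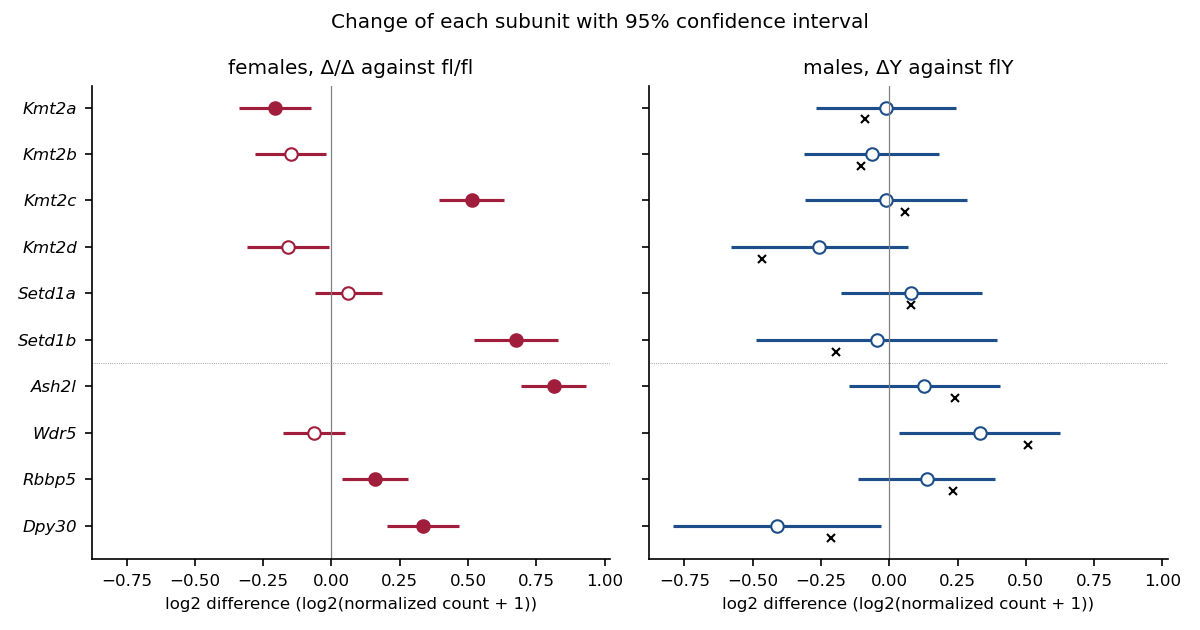
Log2 difference of mutant and control with its 95% confidence interval for the 10 genes, in females and in males, with filled points where the adjusted p is under 0.05 and crosses for the male value without flY library B and ΔY library A. The catalytic subunits are above the dotted line. In females 6 points are filled, 5 of them to the right of 0, and in males none.

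The difference between the sexes was tested itself, as the interaction of sex and genotype over all 12 libraries. It passed for 4 members, against 21.2% of all 22014 genes tested and 32.5% of those with a mean of 100 or more, and in each the change in males was below that in females. For *Ash2l* the change in males minus that in females was −0.68 (SE 0.13; limma adjusted p = 0.0022), for *Dpy30* −0.75 (SE 0.19; 0.0137), for *Kmt2c* −0.53 (SE 0.14; 0.0165) and for *Setd1b* −0.72 (SE 0.22; 0.0314). The interaction of *Setd1b* was lost in 9 of the 12 fits without a library (adjusted p up to 0.0784), those without fl/fl library A, flY library C and ΔY library A excepted, and those of the other 3 genes passed in every fit tried. *Wdr5* stood the other way round at 0.40 (adjusted p = 0.0530), and passed without flY library B (0.50, 0.00334), without ΔY library A (0.47, 0.0102) and without both (0.57, 5.4e-05). With all libraries *Wdr5* passed over genes with a mean of at least 10 (0.40, adjusted p = 0.0366) and with scaling by total reads (0.45, 0.0200). For the remaining 5 members the interaction was between −0.10 and 0.19 and did not pass.

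The sexes were also compared in the control genotype. There 3 members passed, against 21.5% of all genes tested and 31.2% of those with a mean of 100 or more, so that the share is near the background. *Kmt2c* was lower in fl/fl females than in flY males, with a log2 difference of −0.60 (SE 0.10; limma adjusted p = 0.000991), at 908 ± 9.81 and 1377 ± 86.6 normalized counts (SD, n = 3 each). *Ash2l* was lower too, with −0.30 (SE 0.093; adjusted p = 0.0332), at 2408 ± 48.2 and 2989 ± 402, though without fl/fl library A, B or C it did not pass (adjusted p 0.0778 to 0.104). *Wdr5* was higher in fl/fl females, with 0.50 (SE 0.096; adjusted p = 0.00273), at 1156 ± 25.5 and 822 ± 108. Without ΔY library A, which enters only the shared estimate of the spread, *Setd1b* (−0.27, adjusted p = 0.0423) and *Rbbp5* (−0.18, 0.047) passed as well. This comparison shares its control libraries with those within each sex. The Δ/Δ females had 1297 ± 63.1 normalized counts of *Kmt2c* and 4238 ± 269 of *Ash2l*, beside 1373 ± 193 and 3249 ± 20.3 in ΔY males.

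Ratios of paralogous enzymes within a library do not depend on the scaling of libraries. The ratio of *Kmt2c* to *Kmt2d* reads was 0.900, 0.928 and 0.873 in the fl/fl libraries and 1.39, 1.59 and 1.34 in the Δ/Δ libraries. All Δ/Δ ratios were above all fl/fl ratios, with *Kmt2c* the lesser of the pair in controls and the greater in mutants (log2 difference 0.67, SE 0.080). The ratio of *Setd1a* to *Setd1b* was 3.47, 3.96 and 3.50 in fl/fl and 2.42, 2.26 and 2.45 in Δ/Δ libraries. It was lower in all Δ/Δ libraries (log2 difference −0.61, SE 0.071). The ratio of *Kmt2a* to *Kmt2b* was 1.28 ± 0.0983 and 1.23 ± 0.0810 (SD, n = 3 each), with overlapping libraries.

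In males all 3 ratios overlapped between the genotypes, for *Kmt2c* to *Kmt2d* and *Setd1a* to *Setd1b* through library A of ΔY alone. *Kmt2c* to *Kmt2d* was 1.15, 1.27 and 1.10 in flY and 1.02, 1.54 and 1.71 in ΔY libraries, of which library A of ΔY was the low value. *Setd1a* to *Setd1b* was 2.95, 2.76 and 2.82 in flY and 2.46, 3.25 and 3.74 in ΔY, with library A again the lowest. The log2 differences of 0.24 and 0.13 ranged from 0.092 to 0.47 and from −0.0082 to 0.30 when 1 library was left out, with the lowest values without ΔY library C and the highest without ΔY library A. Without flY library B and ΔY library A they were 0.52 and 0.27, and neither ratio overlapped. Over the 6 comparisons of ratios, the exact permutation tests, two-sided, gave p = 0.10 for the *Kmt2c* and *Setd1b* pairs in females, the smallest possible, and 0.30 after Benjamini-Hochberg adjustment. The other 4 had exact p of 0.40 to 0.70.

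**Figure D4:**
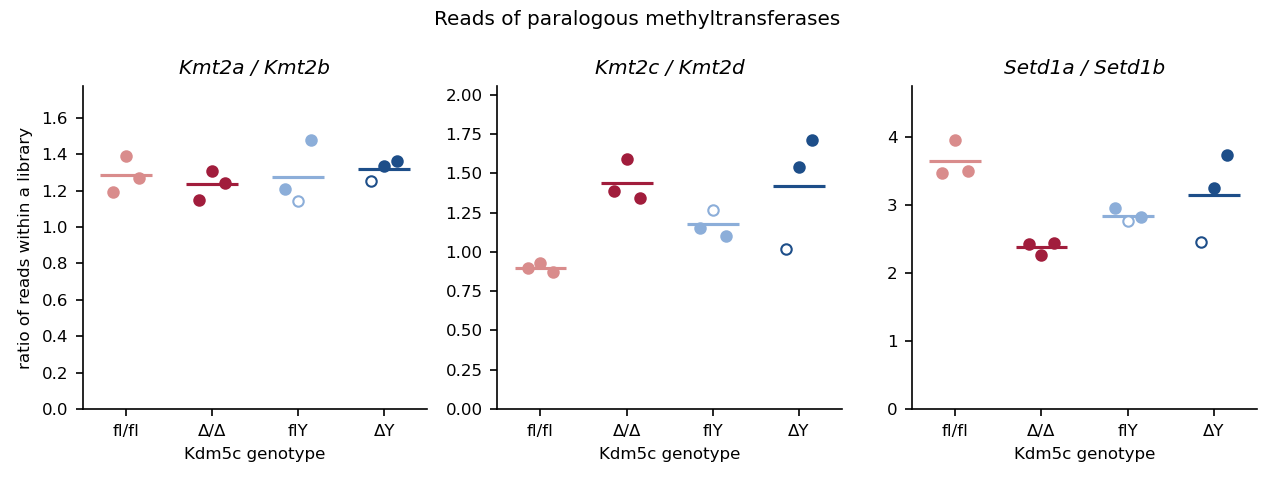
Ratio of reads of paralogous catalytic subunits within each library (points) by *Kdm5c* genotype, with the mean of 3 libraries as a bar, axes from 0, and open points for flY library B and ΔY library A. In females the *Kmt2c* to *Kmt2d* points are at 0.873 to 0.928 in fl/fl and 1.34 to 1.59 in Δ/Δ, and the *Setd1a* to *Setd1b* points at 3.47 to 3.96 and 2.26 to 2.45.

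Genes that work with these complexes were followed through 6 lists, whose counts stand beside the 50.0% of all genes tested, or 68.3% of those with a mean of 100 or more, that passed in females. Counts without flY library B and ΔY library A stand beside 43.0% of all genes in males. Counts at an unadjusted p under 0.05 in males stand beside 5397 of the 21900 genes tested. Further subunits of these complexes, outside the shared core, numbered 12, of which 3 rose in Δ/Δ females and none fell (median log2 difference 0.14). *Wdr82*, which with CXXC1 belongs to the SETD1 complexes, rose from 1182 ± 41.7 to 1607 ± 63.2 normalized counts (SD, n = 3 each; log2 difference 0.44, SE 0.056; limma adjusted p = 2.84e-06). *Cxxc1*, which binds unmethylated CpG, rose from 474 ± 28.8 to 607 ± 16.1 (0.36, SE 0.066; adjusted p = 0.000186). *Hcfc2*, a relative of the host cell factor *Hcfc1*, rose from 68.9 ± 8.27 to 103.9 ± 19.3 (0.57, SE 0.16; adjusted p = 0.0056). The menin gene *Men1* of the KMT2A and KMT2B complexes (0.17, adjusted p = 0.0694) and *Paxip1* (−0.04, 0.653), *Ncoa6* (0.01, 0.922) and *Kdm6a* (−0.09, 0.210) of the KMT2C and KMT2D complexes did not pass. Nor did *Hcfc1* (0.13, adjusted p = 0.0581), *Bod1* (0.16, 0.0812), *Bod1l* (0.13, 0.121), *Pagr1a* (0.14, 0.126) and *Psip1* (−0.07, 0.271) of this list. None of the 12 passed in males (4 at an unadjusted p under 0.05), and 6 did without flY library B and ΔY library A.

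Among 8 other SET domain proteins, 2 rose and 3 fell in females. *Kmt2e*, a relative of the KMT2 family that reads H3K4 trimethylation and is not known as an active methyltransferase, fell from 695 ± 40.7 to 306 ± 31.2 normalized counts (SD, n = 3 each; −1.19, SE 0.079; limma adjusted p = 8.0e-10). *Setd7*, a lysine monomethyltransferase of histone and other proteins, fell from 1711 ± 62.6 to 1083 ± 18.0 (−0.66, SE 0.055; adjusted p = 1.35e-08). *Setd5* fell from 2688 ± 59.7 to 2116 ± 59.3 (−0.35, SE 0.052; adjusted p = 2.08e-05). *Prdm9*, the H3K4 methyltransferase of meiotic recombination sites, rose from 128 ± 21.2 to 299 ± 140.4 (1.11, SE 0.23; adjusted p = 0.000643), with Δ/Δ libraries that ranged from 157 to 437. None of the 8 passed in males (1 at an unadjusted p under 0.05), and 4 did without both libraries.

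The erasers and readers of the mark moved in both directions in females. Of 6 H3K4 demethylases, the targeted *Kdm5c* and *Kdm1a* fell, the latter from 2054 ± 1.55 to 1835 ± 90.6 normalized counts (SD, n = 3 each; −0.16; limma adjusted p = 0.0177). *Kdm1a* did not pass without fl/fl library A or Δ/Δ library B or C (adjusted p 0.0521 to 0.0731). The Y-linked *Kdm5d* is on this list and had a mean of 2.29 normalized counts over the female libraries. Of 14 readers of H3K4 methylation, 7 rose and 6 fell in females. *Dido1* rose from 1063 ± 58.0 to 1944 ± 46.1 (0.87, SE 0.057; adjusted p = 6.04e-10). *Ing4* fell from 264 ± 32.8 to 171 ± 22.8 (−0.63, SE 0.11; adjusted p = 0.000112), *Phf2* from 178 ± 8.43 to 117 ± 12.6 (−0.60, SE 0.11; 0.000143) and *Ing1* from 691 ± 31.8 to 524 ± 26.7 (−0.40, SE 0.065; 5.23e-05).

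In males, *Phf13* was the single gene of the 6 lists that passed. It rose from 615 ± 57.4 to 1041 ± 119 normalized counts (SD, n = 3 each; 0.76, SE 0.13; limma adjusted p = 0.0103), and by 0.93 without flY library B and ΔY library A (0.000103). The call was lost without flY library A or C or ΔY library B or C (adjusted p 0.0511 to 0.0757). It rose by 0.26 in females as well (adjusted p = 0.00156). None of the 6 demethylases passed in males (1 at an unadjusted p under 0.05). Without flY library B and ΔY library A, 4 demethylases and 5 readers passed.

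Of 10 genes of H2B ubiquitination and the PAF1 complex, on which H3K4 methylation by these complexes builds, 4 rose and none fell in females. *Rnf20*, the H2B ubiquitin ligase, rose from 707 ± 36.7 to 923 ± 57.9 normalized counts (SD, n = 3 each; 0.38, SE 0.065; limma adjusted p = 7.03e-05). *Paf1* (0.24, adjusted p = 0.00384), *Leo1* (0.22, 0.0122) and *Wac* (0.19, 0.00828) rose less, and *Leo1* did not pass without fl/fl library B or Δ/Δ library B or C (adjusted p 0.0551 to 0.0917). With scaling by total reads, *Leo1* (0.15, adjusted p = 0.0766) and *Wac* (0.12, 0.0817) did not pass. Of 8 genes of the NSL complex, which shares WDR5, *Ogt* fell from 3076 ± 8.69 to 2235 ± 31.5 (−0.46, SE 0.050; adjusted p = 4.53e-07) and *Kansl3* fell by 0.19 (adjusted p = 0.0167), and *Kansl1* rose by 0.15 (0.0304). The call of *Kansl3* was lost without fl/fl library B or C (0.0554 to 0.064) and that of *Kansl1* without fl/fl library A or B or Δ/Δ library A or C (0.0672 to 0.115) or with scaling by total reads (0.084, 0.244). None passed in males from either list (2 of 10 and 0 of 8 at an unadjusted p under 0.05), and 5 and 1 did without both libraries.

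**Figure D5:**
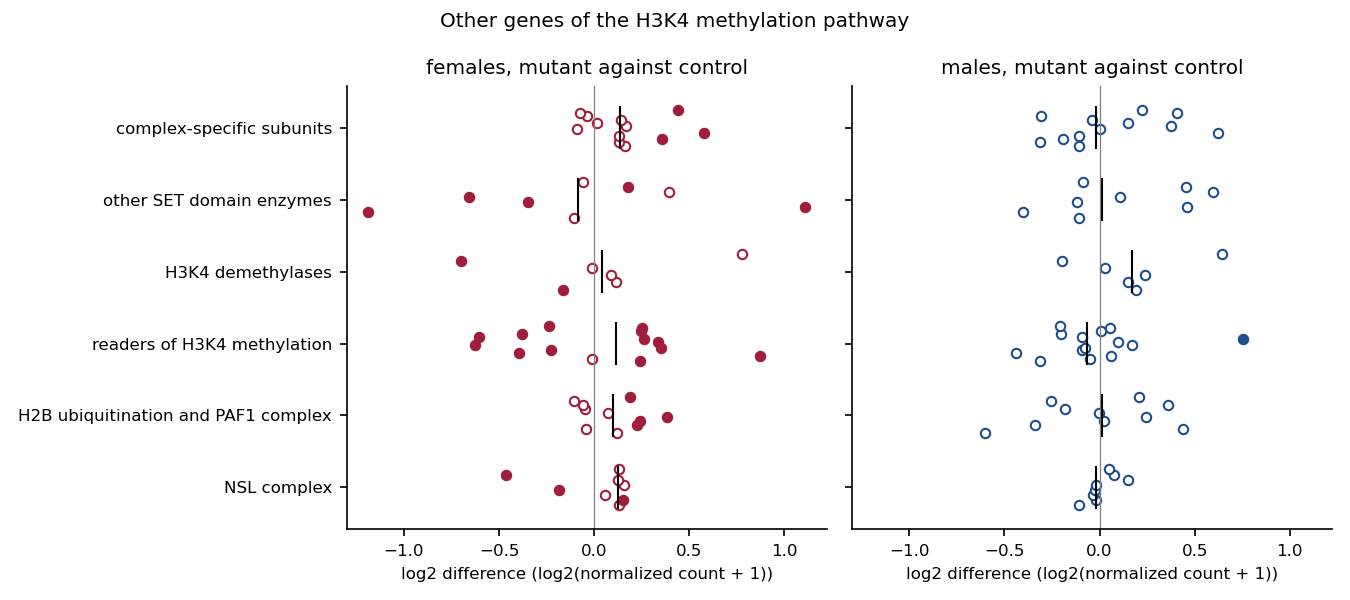
Log2 difference of mutant and control in each sex for every gene (point) of 6 lists, filled where the adjusted p is under 0.05, with the median of a list as a black bar. In females 30 points are filled on both sides of 0, and in males 1, *Phf13*.

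Genes beside the members were also examined. The nearest genes with a mean of at least 10 normalized counts on either side of the members made 20 neighbours, of which 5 rose and 4 fell in females, and 2 rose and none fell in males. Of all genes tested, 50.0% passed in females and 7.78% in males. In the fit over genes with a mean of at least 10, it was 65.8% and 12.3%. The neighbours thus gave no excess of calls in females. *Star*, 0.881 kb from *Ash2l*, rose from a mean of 18.7 to 62.7 normalized counts in females (1.73; limma adjusted p = 2.31e-05), and *Hgsnat* on its other side by 0.31 (0.00679). *Psmd9*, 60.8 kb from *Setd1b*, rose from 262 to 454 (0.79; adjusted p = 3.97e-07), and *Rhof* on its other side rose from 16.4 to 30.4 (0.87; 0.01). The neighbours of *Kmt2c* and *Dpy30* did not pass in females. Median differences of the chromosomes that hold members were between −0.07 and 0.07 in females and between −0.03 and 0.05 in males over genes with a mean of at least 10.

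The genes whose pattern over the 12 libraries was most like that of *Ash2l* were *Zfp110*, *Gosr2* and *Gpatch1*. Their centred log2 values differed from those of *Ash2l* by a root mean square of 0.0705, 0.0807 and 0.0828, where the median of 9700 genes was 0.385. In females they differed by 0.84, 0.72 and 0.78, and in males by 0.11, 0.13 and 0.29. *Dpy30* had the largest difference of the members in males with all libraries, though not without flY library B, where *Wdr5* (0.44) was past *Dpy30* (−0.21). For *Dpy30* the closest were *Nudc*, *Coq7* and *Psmg1*, with root mean squares of 0.110, 0.116 and 0.120 against a median of 0.384. They differed by 0.38, 0.39 and 0.19 in females and by −0.17, −0.44 and −0.28 in males. Both sets were chosen for likeness over the same 12 libraries, so differences like those of *Ash2l* and *Dpy30* follow from the choice.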

How the data were processed

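RNA-Seq of 12 samples was analysed, 3 for each of 4 groups taken from the sample titles. According to the methods of the study, single-end reads of 50 bp were mapped to mm9 with up to 1 mismatch, and per the labels' processing notes TopHat2 2.1.0, Bowtie2 2.2.6.0, DESeq and Cuffdiff were used. The counting annotation and the strand setting are not given in the sources used here. The authors deposited, as signal values, a mean of normalized counts for each group of a sex. The deposited fold changes, log2 fold changes, p-values and adjusted p-values of the authors were not used.

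Whole reads of each library were solved from the means of genes up to 10000 normalized counts, which held 86.0 to 91.4% of the normalized reads of a group. The size factors that this gave were 0.988 to 0.999 times median-of-ratios factors over all 12 libraries, so levels were compared between the sexes on that scale. Reads recovered from genes with means up to 10000 numbered 5516216 to 11092731 per library, which is less than full depth. Precision from depth covers counting error only. Limma 3.58.1 in R 4.3.3 was fitted with an intensity trend to log2(normalized count + 1), within each sex and, for the interaction and the control comparison, over all groups. The values of single libraries were recovered from means, so limma was fitted on the log scale, and voom, which models reads, was an alternative. Two-sided exact permutation tests were used for single values. Alternatives were a pseudocount of 0.1, a minimum mean of 10, limma voom, median-of-ratios factors, scaling by total reads and leaving out each library. Solver and fit were tested on simulated data. Symbols or synonyms placed 93.28% of the 22911 genes on mm9. Python 3.11.15 ran numpy 2.4.6, scipy 1.17.1, pandas 2.3.3 and, for the solver, numba 0.67.0, and matplotlib 3.10.9 drew the figures.

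The members and lists were chosen with earlier results of these data known. All members were named, and of each list up to 4 genes per sex with the largest difference among those that passed with a mean of at least 10, besides *Kdm5c*, *Xist* and, for the members with the largest difference in each sex, the 3 genes of most like pattern with a mean of at least 100. Other named genes of the lists, the neighbours and *Hsd3b7* were picked with their values in view. *Sgf29* was found under its older symbol *Ccdc101*. Replicates are independent ESC lines per the methods of the study.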

Additional observations from a re-analysis of the deposited data

Results flagged for a closer look

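The change with *Kdm5c* genotype differed between males and females by the test of the interaction itself (limma, 12 libraries, 3 per group) for 4 members and 10 genes of the lists, 9 of them named in the text. Among the members, the change in males minus that in females was −0.53 on the log2 scale for *Kmt2c* (adjusted p = 0.0165), −0.72 for *Setd1b* (0.0314), −0.68 for *Ash2l* (0.0022) and −0.75 for *Dpy30* (0.0137). Among the genes of the lists, it was negative for *Dido1* at −0.81 (0.000336), *Leo1* at −0.56 (0.0313) and *Cdc73*, not named above, at −0.72 (0.0118). It was positive for *Ing4* at 0.80 (0.00829), *Kmt2e* at 0.78 (0.0236), *Setd7* at 0.77 (0.00267), *Ogt* at 0.54 (0.0136), *Kdm5c* at 0.50 (0.00347), *Phf13* at 0.49 (0.0217) and *Kdm1a* at 0.35 (0.0346). Over all genes tested 21.2% passed this test. No explanation of these differences was tested, and the marker levels given with the libraries differed between the sexes as well.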

How the results depend on the processing

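The rises of *Ash2l* (0.74 to 0.87), *Setd1b* (0.61 to 0.72), *Kmt2c* (0.44 to 0.55) and *Dpy30* (0.27 to 0.39) in females passed under all 11 alternatives, and 4 to 8 members passed. In males the number of genes called, 1703, ranged from 331 (without flY library C) to 4684 (without flY library B) when 1 library was left out and was 9377 without flY library B and ΔY library A. Of the members 0 to 1 and then 4 were called. For the interaction, 4675 genes became 3554 (without Δ/Δ library C) to 7334 (without flY library B), and 10014 without both. For the control sexes, 4741 became 2894 (without fl/fl library B) to 8318 (without flY library B), and 10724 without both, with 2 to 5 members and then 5. Without flY library B, 30.5% of the male calls were higher, against 53.9% with it.

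Values near 0 changed sign. Scaling by total reads gave −0.0069 for *Setd1a* in females and 0.033 for the interaction of *Rbbp5*. Without both libraries *Kmt2c* in males was 0.057, the interaction of *Rbbp5* 0.074 and *Dpy30* between the control sexes 0.19. With 1 library left out, the ranges in males were −0.093 to 0.054 for *Kmt2a*, −0.079 to 0.11 for *Kmt2c* and −0.27 to 0.13 for *Setd1b*, the interaction of *Setd1a* was −0.041 to 0.068 and that of *Rbbp5* −0.056 to 0.038, and between the control sexes *Kmt2a* was −0.14 to 0.010 and *Dpy30* −0.16 to 0.19. The cause was not tested. The fit without both libraries was chosen after seeing the data. No paired analysis was possible because the deposited columns are group means and the libraries solved from them carry no replicate number. All members had at least 220 reads in each library, and how far counting error limits the male tests was not tested.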
